A study of Homo sapiens with 16 samples.

Results

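The Jurkat-only GABPα sites were 3365 genomic intervals at which GABPα was called with high confidence in both Jurkat ChIP-seq replicates and at which no GABPα peak was called in VCaP cells. An interval was taken from the high confidence list of Jurkat GABPα replicate 2 if it overlapped a high confidence interval of replicate 1 by at least 1 bp, overlapped no MACS peak in any of the 3 VCaP GABPα samples, and overlapped no high confidence interval of either Jurkat ERG replicate. A high confidence interval was one called by both MACS and SWEMBL, and a MACS peak was any call of MACS alone. Of 9769 replicate 2 intervals, 7139 were also found in replicate 1, and these are called reproduced below. Of the reproduced intervals, 3490 overlapped a VCaP GABPα MACS peak (shared intervals), 284 of the others were removed for a Jurkat ERG high confidence interval, and the remaining 3365, or 47.1% of the reproduced intervals, were the Jurkat-only sites. The 10 ChIP samples of the series together held 39138 high confidence intervals. The measured values that chose the sites were therefore the GABPα calls in both cell lines and the high confidence ERG calls in Jurkat cells, so everything that rests on those calls is given as a description.

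GABPα is an ETS family transcription factor that works as a complex with GABPβ and is best known for binding GGAA-core sites in the promoters of broadly expressed genes, among them genes of mitochondrial function and the cell cycle. ETS factors share a similar DNA-binding domain, and several of them can occupy the same promoters, whereas sites away from promoters tend to be more particular to a factor and to a cell type. In blood cells GABPα is known for its part in lymphoid and myeloid gene expression. ERG, a second ETS factor, is expressed in some T-cell leukaemias and is driven by the androgen-responsive TMPRSS2 promoter in prostate cancers that carry the TMPRSS2-ERG fusion.

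The study mapped GABPα and ERG in Jurkat, an established human T-cell leukaemia line, and in VCaP, an established human prostate cancer (PC) line that carries the TMPRSS2-ERG fusion. Jurkat cells carried no treatment label, and each factor was profiled in 2 replicates. The study's methods call its ChIP replicates biological, without saying what separated these samples. VCaP cells gave 1 sample per factor at t0, a label with no further explanation, 1 with ethanol as the vehicle and 1 with R1881, a synthetic androgen, at 1 nM. Before either treatment the cells were kept for 48 h in serum stripped of steroids with charcoal. The labels and the study's methods name different antibodies for ERG, so which antibody the ERG samples had is not settled here. The 2 GABPα replicates of Jurkat were called against 1 common input library. The 6 VCaP samples named 4 input libraries between them, and no input of the series was labelled R1881.

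The samples differed widely in how much was called. MACS called 21503 and 22108 GABPα peaks in the Jurkat replicates, and 9531, 14183 and 15013 in VCaP at t0, with vehicle and with R1881. For ERG, MACS called 7288 and 15229 peaks in Jurkat replicates 1 and 2, and 6963, 19504 and 23947 in the VCaP samples in the same order. The high confidence lists of those VCaP ERG samples held 2, 743 and 2229 intervals. The t0 samples stood apart with the fewest calls of their cell line and factor. Read numbers were not used here, so the depth behind a call is unknown and an absent call means only that no peak passed the caller's threshold. Without the VCaP GABPα t0 sample the selection gave 3380 sites. For GABPα, whether the fewer MACS calls in VCaP than in Jurkat reflect fewer reads or fewer bound sites cannot be told apart.

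At the Jurkat-only sites GABPα scores in Jurkat spanned the whole range, with a somewhat smaller part at either end than for shared intervals. The MACS score of a peak is 10 times the negative log10 of its p-value, with a lowest value of 50 (p of 1e-05), and each interval carries the score of the MACS peak that holds it. In replicate 1 the Jurkat-only sites had a median score of 404, with quartiles of 227 and 668 and a range from 51.1 to 3100. In replicate 2 the median was 378, with quartiles of 222 and 639 and a range from 50.4 to 3196. Shared intervals had medians of 446 and 477 in replicates 1 and 2. The mean of the replicate medians was 391 ± 18.2 (SD, n = 2) for Jurkat-only sites and 462 ± 22.0 (SD, n = 2) for shared intervals, so both replicates of the first lay below both replicates of the second. These scores belong to the calls that the selection used and were not tested. They are counted per interval, so a MACS peak with several intervals counts more than once.

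**Figure D1:**
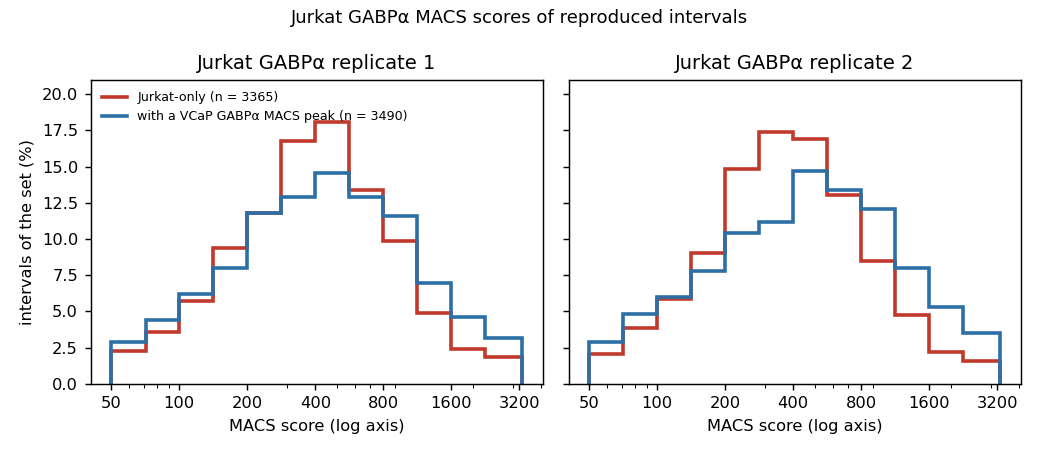
Distribution of Jurkat GABPα MACS scores (horizontal, log axis) in replicates 1 and 2, as the percent of the intervals of each set that fell in each score bin (vertical), for the 3365 Jurkat-only sites (red) and the 3490 shared intervals (blue). The red curves are narrower, with medians of 404 and 378 against 446 and 477, and the blue curves hold more of the highest scores.

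The sets also differed at the upper end of the scores, counted per interval. A MACS peak with several intervals counts more than once, and this was more common among shared intervals. A single interval was held by 93.7% of the Jurkat-only MACS peaks and by 83.3% of the shared ones. The shares and percentiles below were not computed per MACS peak. Scores of at least 1000 in both replicates were reached by 302 Jurkat-only sites (8.98%) and by 539 shared intervals (15.4%). The 90th percentile of Jurkat-only scores was 1086 in replicate 1 and 1047 in replicate 2, against 1415 and 1508 for shared intervals. The lowest scores were also thinner among the Jurkat-only sites: their 10th percentiles were 132 and 129, against 118 in both replicates for shared intervals.

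Ranked by the lower of the 2 replicate scores, the share of reproduced intervals that were Jurkat-only rose and then fell. The ranking was cut into 10 deciles of equal size. In decile 1, with scores from 50.3 to 97.1, 40.1% (95% Wilson interval 36.6 to 43.8%) were Jurkat-only. In decile 5 the share was 56.2%, and in decile 6 it was 54.5%. In decile 10, the strongest calls, it was 34.9%, the lowest of the 10 values. Wilson intervals here cover counting over intervals and not the spread between cultures. The scores are those of the calls that chose the sites, so the shares by score are a description. Intervals of the same MACS peak count separately in them.

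**Figure D2:**
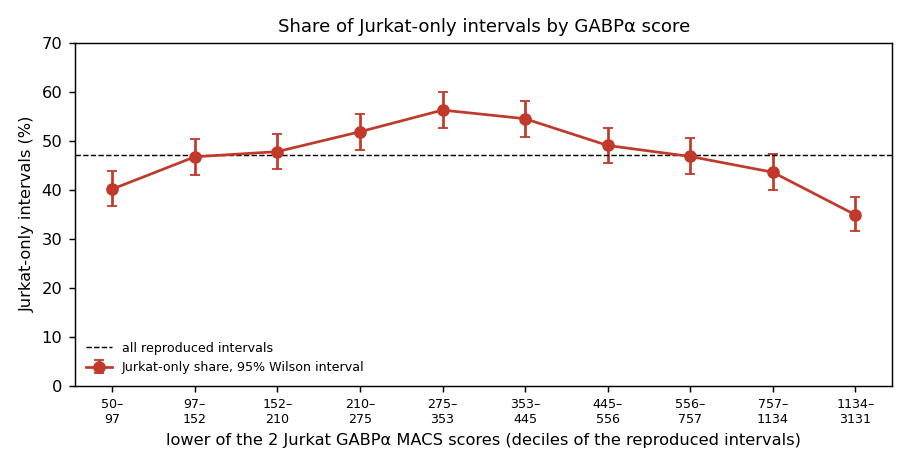
Percent of reproduced Jurkat GABPα intervals that were Jurkat-only (vertical) in deciles of the lower of the 2 replicate MACS scores (horizontal, labels give the score range). Points are shares, bars are 95% Wilson intervals and the dashed line marks the 47.1% of all reproduced intervals; the share is highest at 56.2% in decile 5 and lowest at 34.9% in decile 10.

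The replicates ranked the Jurkat-only sites alike. Over the 3365 sites the Spearman correlation of replicate 1 and replicate 2 scores was 0.895 and the Pearson correlation of log10 scores was 0.893, as a description across sites that share 2 libraries and 1 input. Shared intervals gave 0.814 and 0.806. The scores were within 1.5-fold of each other at 2612 Jurkat-only sites (77.6%) and at 2156 shared intervals (61.8%), and within 2-fold at 92.6% and 80.9%. The median ratio of replicate 2 to replicate 1 was 0.947 for Jurkat-only sites and 1.00 for shared intervals. The positions were close as well: the centres of the replicate 1 and replicate 2 intervals lay a median of 18.0 bp apart, and 2864 sites (85.1%) had centres within 50 bp. For shared intervals the median distance was 17.5 bp and 83.0% were within 50 bp.

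**Figure D3:**
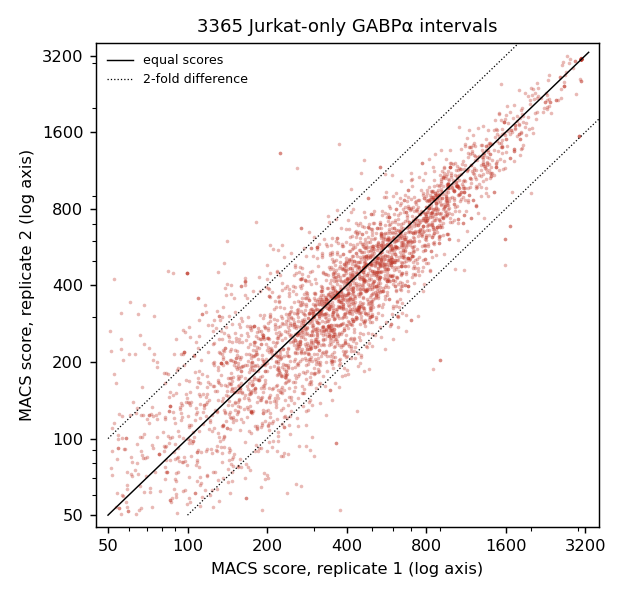
MACS score in Jurkat GABPα replicate 1 (horizontal, log axis) against replicate 2 (vertical, log axis) for each of the 3365 Jurkat-only sites. The solid line marks equal scores and the dotted lines a 2-fold difference; 92.6% of the points lie within the dotted lines, and 185 of the 250 points outside them have a lower score under 200.

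The Jurkat-only sites were narrower than the shared intervals. A wider interval is also more likely to touch a VCaP peak, so the selection itself leans toward narrow ones. Their median width was 213 bp, with quartiles of 150 and 276 bp and a maximum of 622 bp, against a median of 280 bp and a maximum of 1362 bp for shared intervals. The replicate 2 MACS peaks that held them had a median width of 797 bp, against 1218 bp. They came from 3137 MACS peaks, of which 2939 (93.7%) held a single Jurkat-only interval, 176 held 2 and 22 held 3 or more. The 3490 shared intervals came from 2900 peaks, of which 83.3% held a single one. Where a MACS peak held several Jurkat-only intervals, neighbouring centres were a median of 174 bp apart. Of all these peaks, 11 held both a Jurkat-only and a shared interval, and for 38 Jurkat-only sites the whole MACS peak reached a VCaP GABPα MACS peak although the interval did not.

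The 10 sites with the highest lower score of the replicates, 1 per MACS peak, all had a score of 3100 in replicate 1 and 3100 in replicate 2, a value at which scores pile up. Coordinates here and below are from the human build hg18. They lay at chr1:178730160-178730649, chr3:43027939-43028458, chr4:11082352-11082875, chr5:75805233-75805740, chr6:6529007-6529445, chr7:153462771-153462893, chr10:50213514-50213958, chr12:117281123-117281605, chr20:61139364-61139700 and chrX:111011510-111011959. In all, 11 MACS peaks reached 3100 or more in both replicates among the Jurkat-only sites and 25 among the shared intervals, and the order of the 10 is by position only. A MACS peak that held both kinds of interval can be counted in both numbers. None of the 10 overlapped a VCaP ERG MACS peak, and only the site on chromosome 5 overlapped a Jurkat ERG MACS peak, with a score of 74.2 in replicate 2.

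Of these strongest sites, 3 had a weak VCaP GABPα call close by. The sites on chromosomes 3, 4 and 5 lay 1522, 1868 and 1890 bp from a VCaP MACS peak with a score of 69.3 (R1881), 59.2 (t0) and 69.9 (R1881). The other 7 lay between 16524 and 169021 bp from the nearest VCaP call. The chromosome 3 site was 1 of 7 Jurkat-only intervals in a single MACS peak of 7144 bp, chr3:43027818-43034961, with intervals of 112 to 520 bp all carrying the peak's 3100. The widest MACS peak with a shared interval was also 7144 bp wide. This peak may therefore be 1 of the 11 that held both a Jurkat-only and a shared interval. Between the intervals, inside that same peak, lay 3 weak VCaP GABPα MACS peaks, 2 with vehicle and 1 with R1881, with scores from 55.3 to 69.3, the nearest 173 bp from a Jurkat-only interval. One of the 7, chr3:43033606-43033881, overlapped a VCaP ERG MACS peak at t0 with a score of 61.7. The chromosome 7 peak held 4 Jurkat-only intervals, the chromosome 12 and chromosome 20 peaks 2 each, and the other 6 a single one.

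At the other end, the 3 sites with the lowest value of the lower score, chosen after their values were seen, were near the calling threshold in both replicates. At chr10:85927584-85927733 the scores were 56.0 in replicate 1 and 50.4 in replicate 2. At chr8:62002655-62002840 they were 63.7 and 50.5, with a Jurkat ERG MACS peak of 56.6 in replicate 2. At chr3:173953330-173953439 they were 91.0 and 51.0.

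By selection no Jurkat-only site overlapped a VCaP GABPα MACS peak, and the distance to the nearest one varied widely. The distance from other positions was not computed, so whether these distances are large is not known. The median distance to the nearest VCaP GABPα MACS peak was 37059 bp, with quartiles of 13439 and 82163 bp. A VCaP call lay within 1 kb of 86 sites (2.56%), within 10 kb of 653 (19.4%) and within 50 kb of 2013 (59.8%). The sites just inside the selection sat on the flank of a VCaP call. At chr8:27686568-27686924, with scores of 959 and 847 in replicates 1 and 2, a VCaP R1881 peak with a score of 2234 had its edge 34 bp away. At chr19:3712831-3713245, with 1616 and 2034, an R1881 peak of 1443 was 50 bp away, and at chr1:52663267-52663391, with 1594 and 606, one of 50.6 was 58 bp away.

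The intervals just outside the selection were lost through short overlaps. At chr3:103554278-103554518, with Jurkat scores of 358 and 359, the overlap was 1 bp with a VCaP t0 peak of score 60.5. At chr1:106174862-106175201, with 411 and 696, it was 4 bp with a vehicle peak of 51.3, and at chr1:109769568-109769832, with 489 and 184, it was 6 bp with a vehicle peak of 2314. The VCaP calls at shared intervals were mostly strong. The highest VCaP GABPα score at a shared interval had a median of 1628, was under 100 at 247 intervals (7.08%) and under 60 at 73, and 2732 shared intervals (78.3%) had a MACS peak in all 3 VCaP samples.

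SWEMBL, the second caller, had few VCaP regions at these sites, which the selection itself nearly ensured. A VCaP GABPα SWEMBL region overlapped 6 Jurkat-only sites at t0, 15 with vehicle and 12 with R1881, and 15 (0.446%) in any of the samples. Over all reproduced intervals the share was 39.6%, and 80.5% of shared intervals had such a region. SWEMBL was run on the libraries that the selection used, so this share is a description. It called 2906, 6531 and 6136 VCaP GABPα regions at t0, with vehicle and with R1881. The high confidence intervals, called by MACS as well, numbered 2851, 6365 and 5987. Most regions thus appear to lie on MACS peaks, so removing intervals with a MACS peak largely fixed this share in advance. Of the 15 sites, 6 had a region in all 3 VCaP samples. The 3 of these with the highest lower score of the replicates, chosen after their values were seen, had GABPα scores in Jurkat replicates 1 and 2 of 522 and 492 at chr13:110065696-110066002, 321 and 346 at chr11:63510318-63510597, and 117 and 335 at chr11:65781052-65781418.

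Removing high confidence ERG intervals left many weaker Jurkat ERG calls at the Jurkat-only sites. A Jurkat ERG MACS peak overlapped 273 sites (8.11%) in replicate 1 and 687 (20.4%) in replicate 2, with 759 (22.6%, 95% Wilson interval 21.2 to 24.0%) in either replicate and 201 (5.97%) in both. The same shares over all reproduced intervals were 8.24%, 15.7% and 17.0%, counted with the intervals that the selection had removed for ERG. Among the 3439 shared intervals that also had no Jurkat ERG high confidence interval, the shares were 1.16%, 3.17% and 3.49% (2.93 to 4.16%). The sites were chosen partly on ERG calls in these libraries, so nothing is read from these shares. Replicate 2 had more MACS peaks in all, and its share was the larger in each of the 3 sets.

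The remaining ERG calls had lost their strongest members to the selection. Their scores had a median of 73.0 (50.1 to 267) in replicate 1 and 84.4 (50.0 to 682) in replicate 2, and 75.8% and 62.9% of them were under 100. Over all ERG MACS peaks of the libraries the medians were 64.5 and 69.8. With a minimum ERG and GABPα score of 100, the share with a Jurkat ERG peak fell to 8.63%, against 0.892% for the shared intervals filtered alike. That minimum also applied to the VCaP GABPα peaks, so sites with only a weaker VCaP peak counted as Jurkat-only there. The 3 highest, chosen after their values were seen, were all in replicate 2 and had no replicate 1 peak. They were chr4:149084956-149085105 with an ERG score of 682 and GABPα scores of 490 and 462, chr1:58993863-58994117 with 555 against 578 and 740, and chr17:17149572-17149811 with 442 against 478 and 438.

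The Jurkat ERG share differed with the strength of the GABPα call. With the reproduced intervals cut at the quartiles of the lower GABPα score, an ERG MACS peak in either replicate overlapped 13.3%, 21.9%, 28.1% and 26.6% of the Jurkat-only sites, from the weakest GABPα calls to the strongest. For shared intervals with no Jurkat ERG high confidence interval the shares were 1.42%, 2.33%, 3.22% and 6.58%. These ranges are cut on the scores of the selecting calls and are given as a description. Seen from the ERG side, 267 of the 7288 ERG peaks of replicate 1 (3.66%) and 657 of the 15229 of replicate 2 (4.31%) overlapped a Jurkat-only site. The centres of the ERG peaks lay a median of 53.0 bp from the centre of the Jurkat-only site in replicate 1 and 93.5 bp in replicate 2. For all shared intervals the medians were 38.5 and 89.5 bp. These shared intervals include those with a Jurkat ERG high confidence interval, so they were not filtered like the Jurkat-only sites.

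The VCaP ERG libraries were the one set of calls that the selection did not use, and few of their peaks fell on Jurkat-only sites. A VCaP ERG MACS peak overlapped 5 sites (0.149%) at t0, 26 (0.773%) with vehicle, 25 (0.743%) with R1881, and 46 (1.37%, 95% Wilson interval 1.03 to 1.82%) in any of the samples. Over all reproduced intervals the shares were 0.322%, 2.52%, 2.90% and 3.88%. That background counts the 284 intervals removed for Jurkat ERG, of which 32 (11.3%) had a VCaP ERG MACS peak in any of the samples. For the shared intervals with no Jurkat ERG high confidence interval the shares were 0.436%, 3.11%, 3.90% and 5.09% (4.40 to 5.87%). The Jurkat-only share was the lowest of these sets in every VCaP ERG sample, and at t0 it rested on only 5 sites. Each VCaP group had 1 sample and intervals are not replicates of a culture, so no test was run. Without the t0, vehicle or R1881 ERG sample the share over the other two was 1.22%, 0.892% or 0.921% for Jurkat-only sites and 4.97%, 4.04% or 3.31% for the shared intervals filtered alike. The shared intervals were chosen for a GABPα call in this same cell line.

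**Figure D4:**
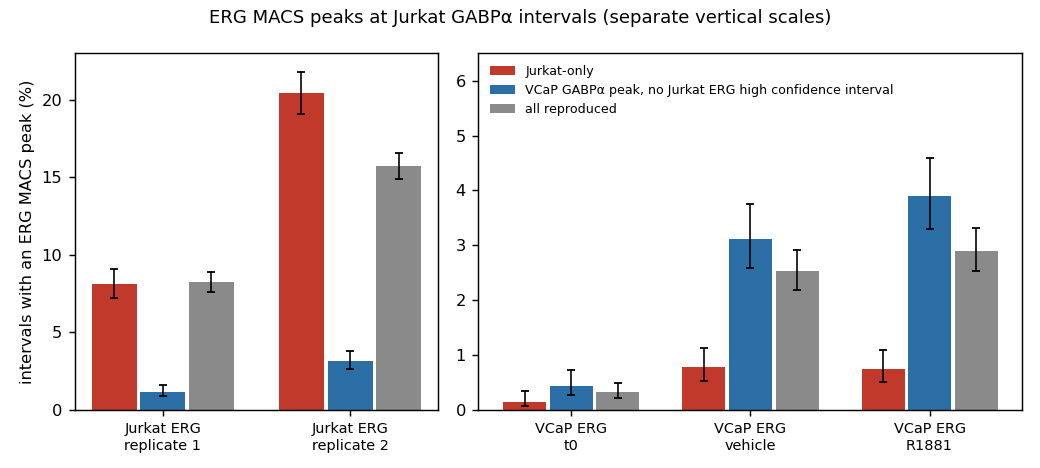
Percent of intervals that overlapped an ERG MACS peak (vertical, with separate scales for Jurkat and VCaP) in each ERG library (horizontal), for Jurkat-only sites (red), shared intervals with no Jurkat ERG high confidence interval (blue) and all reproduced intervals (grey), with 95% Wilson intervals. In the Jurkat libraries, whose calls the selection used, the red bars stand above the blue ones, at 8.11% and 20.4%. In Jurkat replicate 1 the red bar does not exceed the grey one, at 8.24%. In the VCaP libraries the red bars stand below the blue ones, at 0.149%, 0.773% and 0.743%.

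Of the 46 sites with a VCaP ERG MACS peak, 10 had one with vehicle and with R1881, 16 with vehicle alone, 15 with R1881 alone and 5 at t0 alone. At 35 of them the highest VCaP ERG score was under 100. A VCaP ERG high confidence interval overlapped 2 Jurkat-only sites (0.0594%), against 25 (0.727%) of the shared intervals with no Jurkat ERG high confidence interval. Over all reproduced intervals the share was 0.868%, counted with the intervals removed for Jurkat ERG, of which 24 (8.45%) had one. A Jurkat ERG MACS peak was also present at 19 of the 46 (41.3%), against 22.6% of all Jurkat-only sites. The like share at shared intervals with a VCaP ERG MACS peak was not computed. In the same 4 ranges of the GABPα score, from weakest to strongest, the VCaP ERG share was 2.01%, 1.28%, 0.983% and 1.26% for Jurkat-only sites and 2.62%, 4.52%, 5.15% and 7.81% for the shared intervals filtered alike.

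The 3 Jurkat-only sites with the highest VCaP ERG scores differed in their GABPα strength. The site chr15:65862950-65863083 had ERG scores of 350 with vehicle and 170 with R1881, none at t0, and GABPα scores of 73.8 and 123 in Jurkat replicates 1 and 2. At chr21:29439930-29440063 ERG scored 329 with R1881 and 85.7 in Jurkat ERG replicate 2, with GABPα scores of 473 and 416. At chr7:82146092-82146380 ERG scored 251 with R1881 alone, and GABPα scored 1398 and 1110.

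Along the genome the Jurkat-only share of the reproduced intervals was far from even. On chromosome 19 it was 22.8% (113 of 495 intervals, 95% Wilson interval 19.3 to 26.7%), the lowest of all chromosomes, followed by chromosome X with 37.4% and chromosome 16 with 37.5%. On chromosome 21 it was 66.7% (56 of 84, 56.1 to 75.8%), the highest, followed by 59.9% on chromosome 13, 58.0% on chromosome 10 and 57.5% on chromosome 18. The value over all chromosomes was 47.1%.

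**Figure D5:**
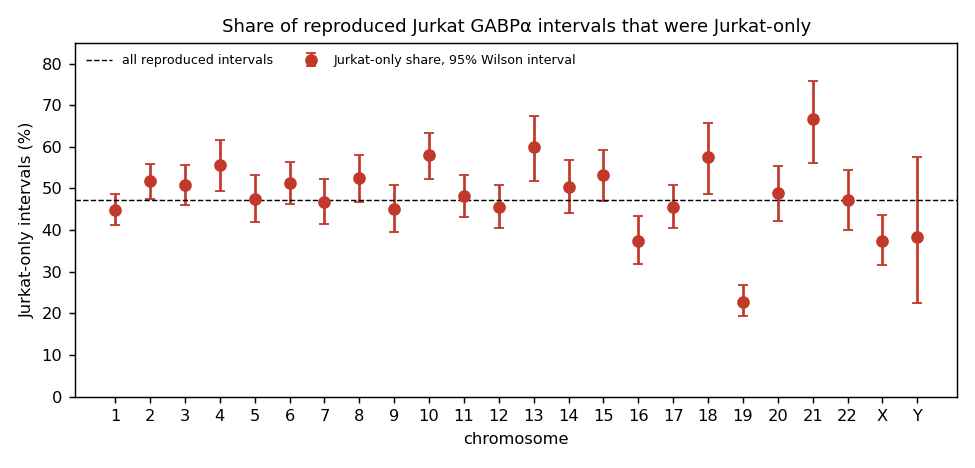
Percent of the reproduced Jurkat GABPα intervals of each chromosome that were Jurkat-only (vertical), by chromosome (horizontal), with 95% Wilson intervals over intervals. The dashed line marks 47.1%; chromosome 19 lies below it at 22.8% and chromosome 21 above it at 66.7%.

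Chromosome 19 held many other intervals rather than few Jurkat-only sites. It had 1.78 Jurkat-only intervals per Mb, within the autosomal range of 0.722 (chromosome 4) to 2.37 (chromosome 22), but 6.01 other reproduced intervals per Mb, against 0.575 on chromosome 4 and 2.66 on chromosome 22. Over the 22 autosomes the Jurkat-only share and the density of reproduced intervals had a Pearson correlation of -0.727 and a Spearman correlation of -0.518, as a description; the density enters both quantities. Without chromosome 19 the values were -0.42 and -0.445. The Jurkat-only sites were thus spread more evenly per Mb than the other reproduced intervals.

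The contrast was sharper in single regions. Of the 138 windows of 5 Mb with at least 15 reproduced MACS peaks, the lowest Jurkat-only share was 3.33% (2 of 60 peaks) at 60 to 65 Mb of chromosome 19, and the highest was 94.1% (16 of 17) at 235 to 240 Mb of chromosome 2. Others with few were 145 to 150 Mb (1 of 22) and 0 to 5 Mb (2 of 17) of chromosome 1 and 0 to 5 Mb of chromosome 16 (4 of 30). Others with many were 5 to 10 Mb of chromosome 10 (16 of 18), 90 to 95 Mb of chromosome 14 (16 of 19) and 55 to 60 Mb of chromosome 20 (19 of 23). The regions were picked for their extreme shares and carry no test.

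Among the 6288 reproduced MACS peaks, the longest run with no Jurkat-only site was 50 peaks over chr19:60688279-63776830, a stretch of 3.09 Mb, followed by 19 peaks over chr19:56765979-60357168 and 18 over chr6:26646231-28519523. The longest run in which every peak held a Jurkat-only site was 13 peaks over chr7:150013583-156788114, a stretch of 6.78 Mb. Next came 12 peaks over chr2:238268559-240978397 and 12 over chr10:7072933-11427137. A run without Jurkat-only sites can hold shared intervals and intervals removed for ERG, and the runs were picked for their length and carry no test.

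By median distance, Jurkat-only sites lay nearer to each other than to shared intervals. Distances from shared peaks to Jurkat-only peaks and from other positions were not computed, so whether the sites cluster is not known. The median distance from a Jurkat-only MACS peak to the next one was 157 kb, with 783 of the 3137 peaks within 50 kb, and to the nearest shared peak it was 279 kb, with 457 within 50 kb. Shared peaks lay a median of 144 kb from each other, with 806 of the 2900 peaks within 50 kb. Close pairs were rare in both sets: 26 Jurkat-only peaks (0.829%) and 26 shared peaks (0.897%) had another of their set within 1 kb.

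The 3 densest groups of Jurkat-only sites each held 4 MACS peaks within 50 kb, with no shared peak and no VCaP GABPα MACS peak between them. The first, chr9:91307170-91341392, spanned 34.2 kb and its scores ran from 269 to 431 in replicate 1 and from 266 to 667 in replicate 2, with no Jurkat ERG MACS peak at its sites. The second, chr11:63055722-63098710, spanned 43.0 kb with weaker scores, from 130 to 319 and from 68.7 to 316. Inside that span lay 3 VCaP ERG MACS peaks, and 1 of its sites overlapped a Jurkat ERG MACS peak. The third, chr12:6606210-6623946, was the tightest at 17.7 kb, with scores from 239 to 875 and from 302 to 765 and 1 site with a Jurkat ERG MACS peak.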

How the data were processed

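ChIP-seq calls of 10 samples (4 Jurkat, 6 VCaP) were used; the 6 input samples had no file here. According to the study's methods and the labels, the authors aligned 36 bp reads with BWA 0.5.5, removed alignments of quality below 15 and duplicates, and called peaks per sample, without pooling replicates, with MACS (version not given in the sources used here) and SWEMBL against inputs. The deposited MACS score is minus 10 times the log10 p. The authors' high confidence lists hold intervals called by both callers. In 7 of the 10 they carry the score of the parent MACS peak, and in the other 3 whole numbers whose meaning is not stated and which were not used. Deposited coordinates are hg18, and the reference tables are of another build, so no gene, promoter or sequence was assigned to a site.

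Overlaps of at least 1 bp were counted in Python 3.11.15 with numpy 2.4.6, and the functions were checked against bedtools on simulated intervals. Where several replicate 1 intervals overlapped a site, the highest score was used. Shares have 95% Wilson intervals from scipy. No test was run, since VCaP groups had 1 sample each and intervals are not replicates. The sites named were the 10 with the highest lower score of the replicates, the 3 just inside and 3 just outside the selection, the 3 densest groups within 50 kb and the 3 with the highest VCaP ERG score; any other is marked as chosen after its values were seen. The members and lists were chosen with earlier results of these data known.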

Additional observations from a re-analysis of the deposited data

How the results depend on the processing

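Of 51 recomputed values, 41 stayed within 1.5 times the count, within the 95% interval of the share or within 1 SD of the median, and 10 did not. Every count of sites stayed, from 2606 (Jurkat ERG MACS peaks in place of high confidence intervals) to 4012 (VCaP high confidence intervals in place of MACS peaks), and from 3414 to 5031 with a replicate left out. The VCaP ERG share of 1.37% was 0.520% with a minimum score of 100, 2.23% over whole MACS peaks, 0.892% without the vehicle ERG sample and 0.921% without the R1881 one, and from 1.36 to 1.61% without a Jurkat GABPα replicate; it stayed below the share of the shared intervals filtered alike in all 12 settings. The Jurkat ERG share of 22.6% was 8.63% with a minimum score of 100 and from 8.11 to 20.4% with 1 ERG replicate. The median score of 391 was 431 with a minimum score of 100 and from 295 to 371 without a replicate, where the selection also changes. The minimum score of 100 changes the selection too, because VCaP GABPα peaks under 100 no longer remove a site. The shares on chromosomes 19 and 21 and of SWEMBL regions kept within their intervals. Counting replicate 1 intervals (3441 sites), a margin of 1 kb to VCaP calls (3279) and 200 bp around each centre were chosen after seeing the data. No paired analysis was possible because no result comes from a test. Distances to genes and sequence features were not run. Depth is unknown, so weak calls near a score of 50 limit each share.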
